A study of Mus musculus with 2 samples.

Results

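Processed pseudogenes are copies of messenger RNAs that were reverse transcribed and inserted back into the genome. They therefore lack the introns and usually the promoter of the coding gene they came from, here called the parent. Genes for ribosomal proteins, glycolytic enzymes and other abundant housekeeping products have left many such copies in the mouse genome, and most copies carry mutations that set them apart from the parent. Some are transcribed, either from sequence near the insertion or as a piece of a longer transcript, and a copy that is nearly identical to its parent also matches the parent's reads.

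The regions described here are the processed pseudogenes listed with a measurable level in neonatal mouse brain. They were chosen by the gene type of the deposited table and by level, as autosomal processed pseudogenes whose FPKM (fragments normalized for transcript length and library size) averaged above 0.3 over both libraries. Of 7262 processed pseudogenes outside the X and Y chromosomes, 1269 (17.5%) met this rule, among 128603 transcripts of all types in the table. Because the rule used the level, all levels below are a description and carry no test.

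Brains of mice at postnatal day 0 were compared between a maternal Mir125b-2 knockout (KO) library and a wild-type library. The strain label is C57BL/6, and the methods give a C57BL/6J background for the knockout mice. The maternal KO (m-/p+) pups were born to heterozygous females mated with C57BL/6J males and carried a conventional deletion of pre-miR-125b-2 on the maternal allele, so the paternal allele was intact in every cell. The wild-type (m+/p+) pups carried no deletion. Each library was made from RNA of 6 animals pooled in equal amounts, so there was 1 library per genotype, no error between animals could be computed, and no test was possible. Every difference below is between these libraries, and the genotype and the pool cannot be told apart.

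The tissue label is whole brain, whereas the extraction protocol of the same samples names the hippocampus. Ttr, a transthyretin gene that marks the choroid plexus, was listed at 557 FPKM in maternal KO and 520 FPKM in wild type, and Hoxb3, a hindbrain gene, at 3.23 FPKM in maternal KO and 3.17 FPKM in wild type. Tubb3, a neuronal tubulin, stood at 773 FPKM in maternal KO and 768 FPKM in wild type. RNA from outside the hippocampus was thus present in both libraries. Another hindbrain gene, Hoxb5, had 2.63 FPKM in maternal KO and 4.12 FPKM in wild type. Of the cerebellar genes, Pax2 had 0.387 FPKM in maternal KO and 0.923 FPKM in wild type. Atoh1 had 0.689 FPKM in maternal KO and 0.541 FPKM in wild type. Whether the pools matched in regional make-up was not tested. The targeted gene itself checked nothing, since Mir125b-2 was listed at the floor of 1e-05 FPKM in both libraries, the value that stands in place of 0 in the table. Its host transcript gene Mir99ahg had 35.7 FPKM in maternal KO and 28.1 FPKM in wild type.

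Sequences were taken from the GENCODE M21 transcripts on GRCm38, which held 1262 of the 1269 members, and coordinates are those of the deposited table on the same build. The first set is shown because it holds the 3 highest short copies and a copy identical to its coding gene. Gm3788 (chr3:86672033-86672168, minus strand) is a copy of Tmsb10, which encodes an actin-binding thymosin, and its 1 base with no match in Tmsb10 is in capitals. Rpl38-ps2 (chr6:140746960-140747172, minus strand) has no base that differs from Rpl38, a gene of the large ribosomal subunit. Gm10060 (chr8:19784746-19784856, plus strand) and Gm21769 (chr8:20122384-20122494, plus strand) differ from each other at the 1 base in capitals.
Gm3788: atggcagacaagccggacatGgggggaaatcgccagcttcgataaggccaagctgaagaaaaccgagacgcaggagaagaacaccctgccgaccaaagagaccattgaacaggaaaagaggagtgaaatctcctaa
Rpl38-ps2: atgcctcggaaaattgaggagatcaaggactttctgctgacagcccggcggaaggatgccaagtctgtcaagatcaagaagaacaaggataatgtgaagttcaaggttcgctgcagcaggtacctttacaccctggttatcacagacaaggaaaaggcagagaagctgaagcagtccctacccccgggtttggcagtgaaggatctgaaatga
Gm10060: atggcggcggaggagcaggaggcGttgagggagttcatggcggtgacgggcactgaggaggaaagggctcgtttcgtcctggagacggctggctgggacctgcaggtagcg
Gm21769: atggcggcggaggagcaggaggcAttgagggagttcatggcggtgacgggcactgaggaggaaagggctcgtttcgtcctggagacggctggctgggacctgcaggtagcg

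The second set is shown because each member had a floor value in 1 library while a close relative in the same set had one in the other. Gm15745 (chr12:87067477-87067591, plus strand) and Gm45660 (chr8:40683497-40683647, minus strand) copy Rps19, a gene of the small ribosomal subunit. Gm20305 (chr1:180854282-180854458, minus strand) and Polr2k-ps (chr11:95761491-95761665, plus strand) copy Polr2k, which encodes a subunit shared by the nuclear RNA polymerases. Capitals mark bases that do not match the parent, and bases missing from a copy are not shown.
Gm15745: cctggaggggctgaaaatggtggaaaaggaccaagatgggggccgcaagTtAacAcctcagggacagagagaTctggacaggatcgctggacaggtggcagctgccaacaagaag
Gm45660: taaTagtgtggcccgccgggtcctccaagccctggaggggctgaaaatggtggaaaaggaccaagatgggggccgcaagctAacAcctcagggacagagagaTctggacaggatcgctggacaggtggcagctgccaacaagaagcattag
Gm20305: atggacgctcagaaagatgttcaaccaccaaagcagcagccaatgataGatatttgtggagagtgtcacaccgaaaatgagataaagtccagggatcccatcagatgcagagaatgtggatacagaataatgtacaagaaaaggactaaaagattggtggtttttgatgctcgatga
Polr2k-ps: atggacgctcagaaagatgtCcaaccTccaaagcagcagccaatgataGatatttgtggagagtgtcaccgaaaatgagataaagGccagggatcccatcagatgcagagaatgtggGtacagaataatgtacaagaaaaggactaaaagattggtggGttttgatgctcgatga

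The last pair shows a diverged copy and a copy with an exact duplicate. AC155929.2 (chr10:9587602-9588114, minus strand) is a diverged copy of Cycs, the gene of cytochrome c. Of its 307 bases, 35 do not match Cycs and are in capitals, and the first 300 bases are shown. Bases missing from the copy are neither counted nor shown, and the identity over the whole alignment was 85.5%. Rps19-ps1 (chr14:53213730-53214167, plus strand), of which the first 300 of 438 bases are shown, has no base that differs from a second annotated copy, Rps19-ps2.
AC155929.2: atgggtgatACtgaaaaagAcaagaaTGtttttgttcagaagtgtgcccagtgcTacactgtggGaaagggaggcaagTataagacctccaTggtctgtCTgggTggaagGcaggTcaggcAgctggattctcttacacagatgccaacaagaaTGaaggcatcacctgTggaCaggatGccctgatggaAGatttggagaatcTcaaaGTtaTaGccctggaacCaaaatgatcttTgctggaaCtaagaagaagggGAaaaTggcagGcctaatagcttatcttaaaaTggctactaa
Rps19-ps1: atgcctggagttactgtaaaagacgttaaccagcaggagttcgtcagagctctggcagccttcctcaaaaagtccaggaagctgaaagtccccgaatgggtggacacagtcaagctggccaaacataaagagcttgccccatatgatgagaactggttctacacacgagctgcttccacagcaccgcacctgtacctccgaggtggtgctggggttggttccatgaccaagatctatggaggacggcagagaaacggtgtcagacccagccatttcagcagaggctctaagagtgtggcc

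The members spanned a mean FPKM of 0.301 to 467, with a median of 1.2 and quartiles of 0.597 and 3.35. Only 66 of the 1269 were above 20 FPKM, 228 were above 5 FPKM and 718 were above 1 FPKM. Just above the threshold, Gm5564 had 0.215 FPKM in maternal KO and 0.387 FPKM in wild type, and AC154552.9 had 0.377 FPKM in maternal KO and 0.225 FPKM in wild type. Just below it, Gm6649 had 0.255 FPKM in maternal KO and 0.344 FPKM in wild type, while Gm36996 was at the floor in maternal KO and at 0.599 FPKM in wild type. Together the members summed to 7189 FPKM in maternal KO and 7067 FPKM in wild type, or 0.411% of all FPKM in maternal KO and 0.407% in wild type. The ratio of these sums was 1.02, but it came to 0.988 without Gm3788 alone, the highest member, an omission chosen after its values were seen. The 12 highest members held 30.1% of the summed mean.

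Gm3788, the copy of Tmsb10 printed above, was the highest member, with 569 FPKM in maternal KO and 365 FPKM in wild type. Its value in maternal KO was 1.56 times that in wild type, whereas Tmsb10 itself had 788 FPKM in maternal KO and 823 FPKM in wild type. The copy is 136 bases long and lies antisense to Lrba, and its longest open frame holds 14 codons, 31.8% of the parent's. Gm10060 had 372 FPKM in maternal KO and 343 FPKM in wild type. Gm21769 had 128 FPKM in maternal KO and 117 FPKM in wild type. These copies, 111 bases each and 1 base apart, thus differed 2.92-fold in maternal KO and 2.93-fold in wild type, while each kept nearly the same level across the libraries. Their closest coding gene was Nsfl1c, which encodes a cofactor of the p97 ATPase and had 45.9 FPKM in maternal KO and 45.1 FPKM in wild type, below both copies.

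Of the 12 highest members, 7 were copies of ribosomal protein genes. Gm10443, identical to Rps28 over 210 bases, had 261 FPKM in maternal KO and 267 FPKM in wild type. Gm9794, a copy of Rpl23 with 99.8% identity, had 251 FPKM in maternal KO and 231 FPKM in wild type and stood above Rpl23 itself, which had 168 FPKM in maternal KO and 166 FPKM in wild type. Both pseudogenes were at nearly one level in the libraries. Rpl38-ps2 had 116 FPKM in maternal KO and 93.6 FPKM in wild type, and Gm14303, a copy of Rps29, had 62.8 FPKM in maternal KO and 103 FPKM in wild type. The other ribosomal copies, Rpl14-ps1, Gm4332 (Rps20) and Rpl36a-ps2, were between 86.1 and 99.2 FPKM in both libraries and within 1.2-fold.

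The remaining members of the 12 highest came from a cyclophilin and a nuclear protein. Gm10123, identical to Ppia, the cyclophilin A gene, over 490 bases, had 102 FPKM in maternal KO and 131 FPKM in wild type. Gm4617, a copy of Ptma, which encodes the acidic nuclear protein prothymosin alpha, had 91.2 FPKM in maternal KO and 127 FPKM in wild type. Both were lower in maternal KO, although Ppia itself had 499 FPKM in maternal KO and 435 FPKM in wild type and Ptma had 343 FPKM in maternal KO and 345 FPKM in wild type. All 12 shared most of their sequence with other places, since less than 50% of their 50-base words were found in no other annotated transcript, and 5 of the 12 had no such word at all. How far reads of the coding genes entered these values was not tested.

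**Figure D1:**
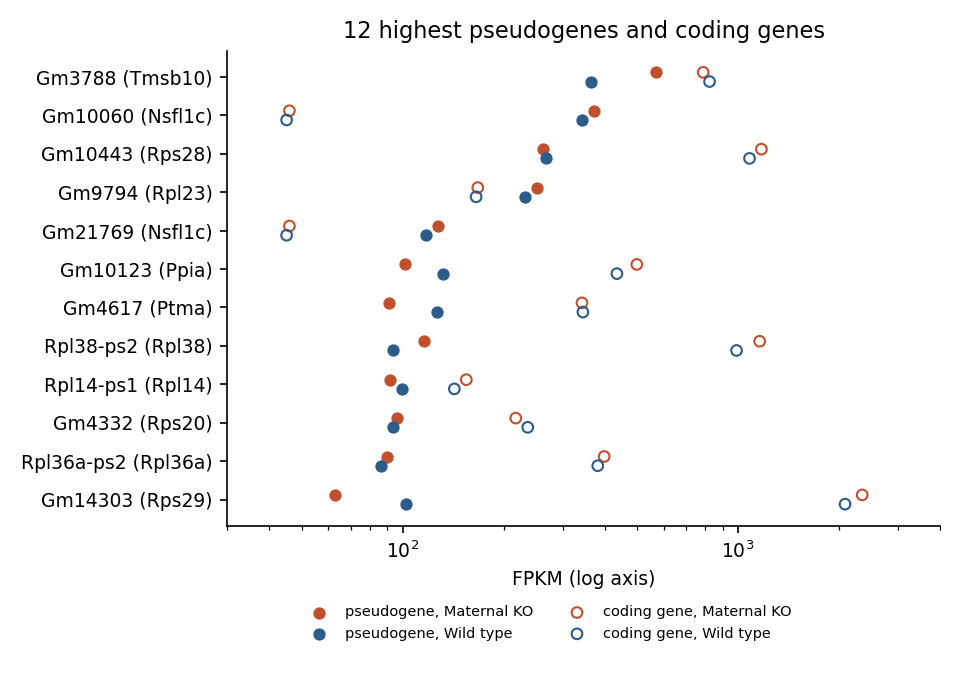
Level of the 12 highest processed pseudogenes (filled points) and of their closest coding genes in parentheses (open points), in FPKM on a log axis, with maternal KO in red and wild type in blue. Gm3788 is highest at 569 FPKM in maternal KO and 365 FPKM in wild type, and Gm10060, Gm9794 and Gm21769 lie above their coding genes in both libraries.

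Across the libraries the members scattered evenly around equality. The ratio of maternal KO to wild type was above 2 in 159 members (12.5%) and below 0.5 in 169 members (13.3%). Among the 49156 transcripts outside X and Y with a mean above 0.3 FPKM, members included, it was above 2 in 9.44% and below 0.5 in 8.94%. At the floor in wild type were 57 of the higher members, and at the floor in maternal KO 60 of the lower members. Together these were 9.22% of members, against 4.71% of all such transcripts at the floor in 1 library. The median log2 ratio, with a pseudocount of 0.1 FPKM, was -0.02 over members and 0.01 over all transcripts. The share of transcripts within 1.2-fold was 33.4% of members and 47.3% of all transcripts. Members were therefore more spread than all transcripts in both directions, and both medians were near 0.

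**Figure D2:**
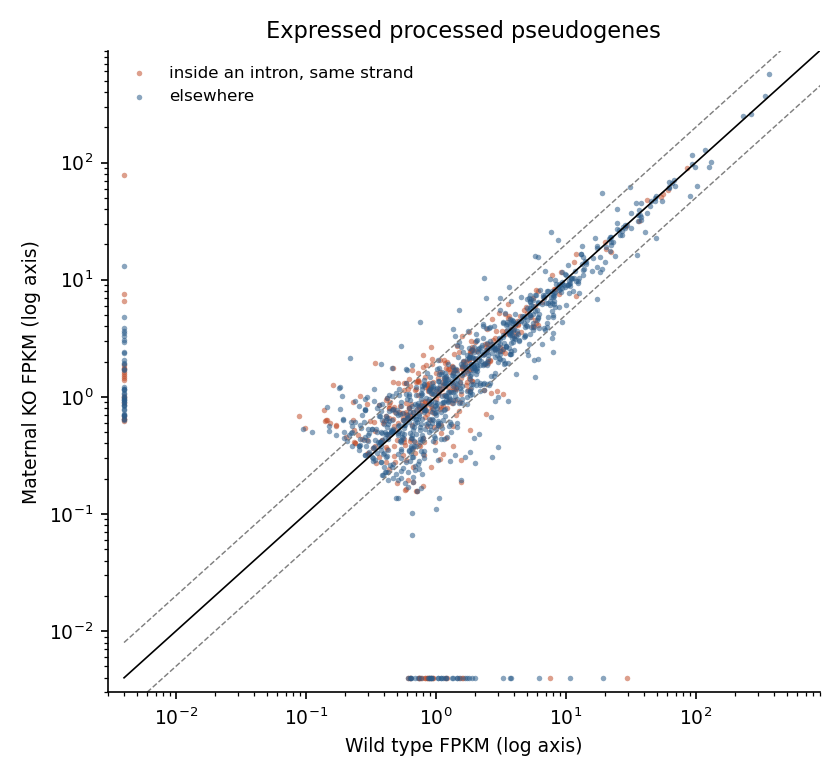
Each point is 1 of the 1269 processed pseudogenes, with FPKM in maternal KO against FPKM in wild type on log axes, in red where it lies within an intron of a gene on the same strand and in blue elsewhere. The solid line marks equality and the dashed lines 2-fold, and members listed at the floor in 1 library are drawn as the rows of points near the lower and left edges, 60 at the floor in maternal KO and 57 at the floor in wild type. Points spread more widely at low FPKM and lie mostly closer to the solid line above 20 FPKM.

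This spread went with level and with length. Between 0.3 and 1 FPKM, 42.7% of members were past 2-fold in either direction, against 37.4% of all transcripts in that range. Between 1 and 5 FPKM the shares were 14.9% of members and 12.1% of all transcripts. Between 5 and 20 FPKM they were 9.88% of members and 2.06% of all transcripts, and above 20 FPKM 6.06% of members, which is 4 of 66, and 3.07% of all transcripts. The members were also short, with a median of 511 bases. Of the 33 members of up to 200 bases, 57.6% were past 2-fold and 51.5% were at the floor in 1 library, against 55.6% and 43.8% of all transcripts of that length. Above 300 and up to 500 bases 30.8% of members were past 2-fold, against 44.5% of all transcripts, and above 1000 bases 3.45% of members, against 9.69%. Within each length class above 200 bases the members thus had a smaller share past 2-fold than all transcripts, the reverse of the order over all lengths together. No test of these differences was possible, and the depth behind each value is unknown, because only FPKM values were used.

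**Figure D3:**
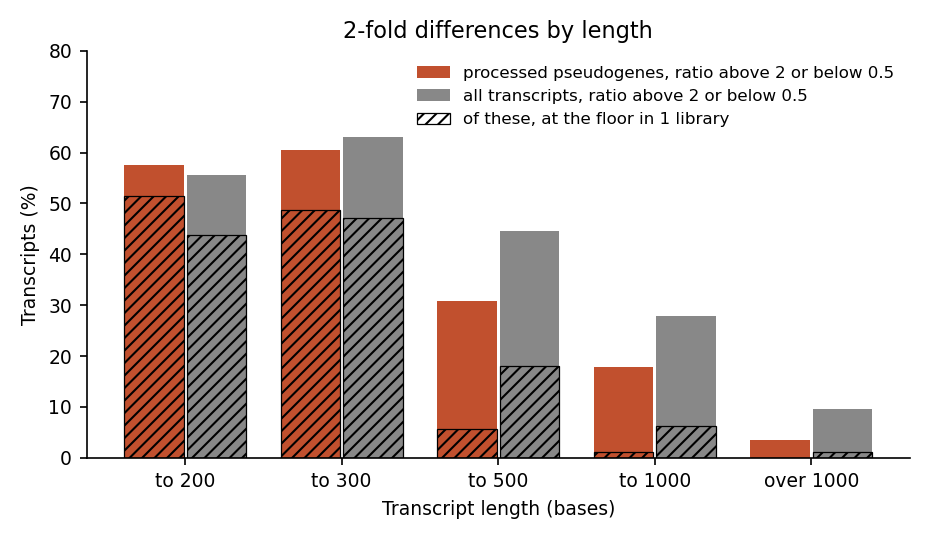
Share of transcripts with a ratio of maternal KO to wild type above 2 or below 0.5, in percent, by transcript length in bases, for the processed pseudogenes (red) and for all transcripts outside X and Y above 0.3 FPKM (grey). Hatching marks those listed at the floor in 1 library. The share of processed pseudogenes is 57.6% up to 200 bases and 3.45% above 1000 bases.

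Members at the floor in 1 library included some of high level. Gm15745, the 115-base copy of Rps19 within an intron of Tmem63c, had 77.6 FPKM in maternal KO and was at the floor in wild type. Gm45660, the other short copy of Rps19 printed above, was at the floor in maternal KO and had 10.8 FPKM in wild type. Rps19 itself had 418 FPKM in maternal KO and 384 FPKM in wild type. Over the aligned 115 bases these copies were 99.1% identical, so the pair differed in opposite directions while nearly sharing their sequence. Other close copies were above the floor in both libraries. Rps19-ps6, 99.1% identical to Gm15745 and 99.3% identical to Gm45660, had 11.0 FPKM in maternal KO and 7.89 FPKM in wild type, and Rps19-ps3, 97.4% identical to both, had 10.9 FPKM in maternal KO and 10.05 FPKM in wild type. The 8 expressed copies of Rps19 summed to 107 FPKM in maternal KO and 38.1 FPKM in wild type, of which Gm15745 gave 77.6 FPKM in maternal KO.

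A pair of Polr2k copies also differed in opposite directions. Gm20305 was at the floor in maternal KO and had 19.2 FPKM in wild type. Polr2k-ps had 7.62 FPKM in maternal KO and was at the floor in wild type. Polr2k had 31.6 FPKM in maternal KO and 32.7 FPKM in wild type, so the coding gene stood at one level while each of these copies was above the floor in 1 library only. Gm14567, a copy on the X chromosome that is 99.4% identical to Gm20305, was seen in both libraries, with 3.74 FPKM in maternal KO and 3.01 FPKM in wild type. A pair with opposite floor values was also found at a repeated locus on chromosome 12 whose closest coding gene was Asap2, an Arf GTPase-activating protein gene. There AC165157.5 was at the floor in maternal KO and had 29.6 FPKM in wild type, and AC164424.5 had 13.0 FPKM in maternal KO and was at the floor in wild type. Those are 139 bases each and 94.9% identical, and 85.6% of the words of AC165157.5 and 62.2% of those of AC164424.5 were unique. Because these values have no counts behind them, no fold is given against the floor.

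Among members of at least 1 FPKM seen in both libraries, the highest ratio belonged to Gm13552, a copy of the mitochondrial ribosomal gene Mrps18b, with 2.16 FPKM in maternal KO and 0.219 FPKM in wild type, 9.87-fold. AC155929.2, the Cycs copy printed above, had 4.38 FPKM in maternal KO and 0.757 FPKM in wild type. Gm13532, a copy of Rps27a, which encodes a fusion of ubiquitin and a ribosomal protein, had 10.3 FPKM in maternal KO and 2.34 FPKM in wild type. These 3 were 4.40 to 9.87 times as high in maternal KO, and all of the words of AC155929.2 but only 13.6% of those of Gm13552 were unique to the copy. AC153729.2 (Supt4a, a transcription elongation factor gene), Gm45246 (Hnrnpl, a splicing factor gene) and Gm8213 (Rpl27a) made up the rest of the 6 highest, with 1.90 to 2.71 FPKM in maternal KO and 0.339 to 0.539 FPKM in wild type.

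The lowest ratio belonged to Gm8508, a copy of Golga7, a gene of a Golgi-associated protein, with 0.308 FPKM in maternal KO and 2.71 FPKM in wild type. Gm13453, a copy of Atp6v1g1, a subunit gene of the vacuolar proton pump, had 0.370 FPKM in maternal KO and 2.99 FPKM in wild type. Their ratios were 0.114 for Gm8508 and 0.124 for Gm13453. The rest of the 6 lowest were Gm45224 (Fam136a), Gm12168 (Fam104a), Rpl34-ps2 and Gm13831 (Erh), with 0.271 to 0.443 FPKM in maternal KO and 1.69 to 2.01 FPKM in wild type. The coding genes of these 6 had values within 1.2-fold between the libraries, for example 34.0 FPKM in maternal KO and 33.2 FPKM in wild type for Golga7.

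Copies and parents were then set side by side over the whole set. A closest coding gene was found for 1253 members, and 1248 of those had a parent with values in the table. A member's mean FPKM was a median of 2.42% of its parent's (quartiles 0.647% and 8.31%). Of the 323 members past 2-fold with a parent in the table, 274 (84.8%) had a parent within 1.2-fold and 1 had a parent past 2-fold. That share over all 1248 members was not computed, so the 84.8% gives no result about the members past 2-fold. Of all coding transcripts above 20 FPKM, 94.6% were within 1.2-fold. That is a share of single transcripts, whereas the parent levels are sums over listed transcripts at any level. Over the 688 members of at least 1 FPKM seen in both libraries, Spearman's correlation between the log2 ratio of a member and that of its parent was -0.002, a description across regions that share libraries and, in part, reads. The level of members followed that of parents only weakly, with a correlation of 0.19 over 1248 members.

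The 1253 members came from 663 parents, and 194 parents had at least 2 expressed copies. In 36 of these families of copies, at least 1 member was above 2-fold and at least 1 below 0.5. Over all members 12.5% were higher and 13.3% lower, against 9.44% higher and 8.94% lower of all transcripts. How many such families these shares alone would give was not computed. The parents named next were picked after their values were seen. Rpl21, a gene of the large ribosomal subunit, had the most expressed copies, 22 of 100 annotated, with 2 higher and 4 lower. Those copies summed to 44.3 FPKM in maternal KO and 59.0 FPKM in wild type, while Rpl21 had 75.0 FPKM in maternal KO and 71.7 FPKM in wild type. Rps2 had 18 expressed copies of 116 annotated, Hmgb1, which encodes an abundant chromatin protein, had 15 of 116 with none past 2-fold, and Rpl17 had 15 of 79. Rpl17 stood apart, with 78.7 FPKM in maternal KO and 40.9 FPKM in wild type, against 94.9 FPKM in maternal KO and 137 FPKM in wild type summed over its copies. Most of the copies' sum was Rpl17-ps10, with 51.6 FPKM in maternal KO and 89.9 FPKM in wild type, and 14.2% of its words were unique.

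In 34 cases the copy was above its parent. Dynlt1-ps1, identical over 342 bases to Dynlt1a, one of several near-identical dynein light chain genes, had 66.6 FPKM in maternal KO and 65.2 FPKM in wild type, against 17.1 FPKM in maternal KO and 18.5 FPKM in wild type for Dynlt1a. Gm13835, identical to the proteasome gene Psma3, had 58.3 FPKM in maternal KO and 60.7 FPKM in wild type, close to 56.3 FPKM in maternal KO and 51.2 FPKM in wild type for Psma3. In 18 of the 34 cases the parent's mean was below 1 FPKM. One such parent, picked after its values were seen, was the mitochondrial complex I gene Ndufs3, listed at 0.115 FPKM in maternal KO and 0.241 FPKM in wild type, while its copy Gm12251 had 3.68 FPKM in maternal KO and 3.71 FPKM in wild type.

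Gapdh, a glycolytic enzyme gene that cells generally use at high level, had the most annotated copies of any parent, 348, of which 17 were expressed. All 13 of its listed transcripts together had only 9.71 FPKM in maternal KO and 14.8 FPKM in wild type. The actin gene Actb, in contrast, had 1629 FPKM in maternal KO and 1619 FPKM in wild type. The Gapdh copy Gm7336, 99.8% identical over 1232 bases with no unique word, had 9.60 FPKM in maternal KO and 9.28 FPKM in wild type, and the 17 copies summed to 21.8 FPKM in maternal KO and 23.1 FPKM in wild type. Levels of genes such as Gapdh and Ndufs3 in this table are therefore values as listed, and whether reads with several matching places were dropped or split was not tested.

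What the members shared beyond level was closeness to a coding gene. Their median identity to the parent was 97.4%, against 87.5% for the other processed pseudogenes, and 68.3% of members were at least 95% identical, against 14.6% of the others. Of the members, 35.2% held an open frame of at least 90% of the parent's coding length, against 8.18% of the others. An open frame is the longest run of codons from an ATG to a stop or the end, in any forward frame. Whether it was the parent's own frame was not tested. GC content was similar, with a median of 49.2% in members and 47.2% in the others, as was length, with 511 bases in members and 534 bases in the others. The polyadenylation signal AATAAA stood in the last 50 bases of 2.22% of members and 1.42% of the others.

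The share of annotated copies that were expressed, meaning only listed above 0.3 FPKM, was larger at high identity. It was 6.73% at up to 80% identity, 5.59% from 80 to 90%, 10.6% from 90 to 95%, 33.6% from 95 to 98%, 71.4% from 98 to below 100% and 71.6% for the 95 copies with 100%. Median level moved the same way, at 0.796 FPKM for members of up to 80% identity and 6.76 FPKM for members of 100%. Across members, Spearman's correlation between level and identity was 0.395, and that between level and the share of unique words was -0.364. In 84 members no 50-base word was unique, so each of their words also stood in an annotated transcript of another place. How far their values can be told apart from those of such places was not tested. In 191 members every word was unique. Rps19-ps1 and Rps19-ps2, picked after their values were seen, which have the same 438 bases, were listed with the same values, 2.71 FPKM in maternal KO and 3.48 FPKM in wild type, the only such pair seen among members above the floor.

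**Figure D4:**
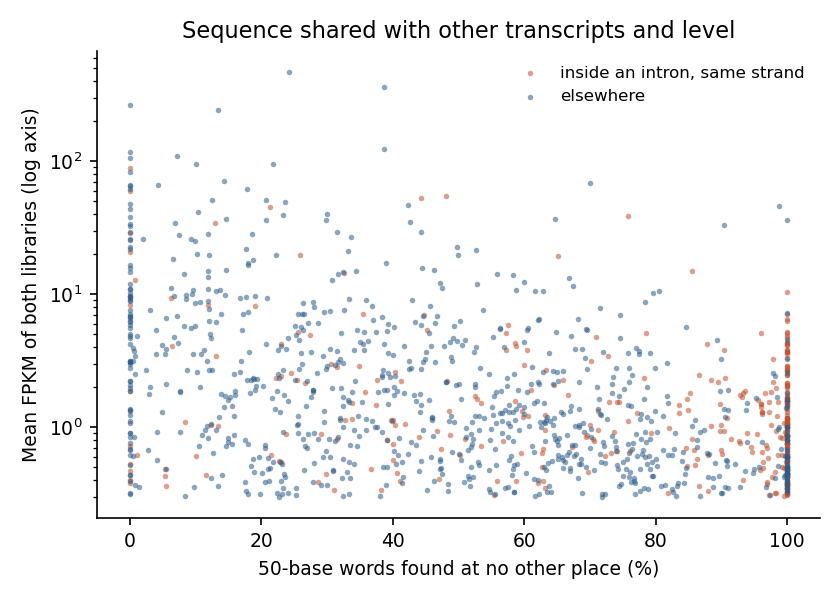
Mean FPKM of both libraries on a log axis against the share of a member's 50-base words found in no annotated transcript of another place, in percent, with same-strand intronic members in red and the others in blue. Members above 20 FPKM lie mostly at the left, with few unique words, and intronic members gather at the right.

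Position went with expression as well. Of the 805 annotated copies that lie in an intron of a gene on the same strand, 380 (47.2%) were expressed, against 13.2% of 5016 intergenic copies, 15.1% of 1360 copies antisense to a gene and 27.2% of 81 copies that touch an exon on the same strand. Among copies of up to 80% identity, 88 of 181 intronic ones (48.6%) but 13 of 1103 intergenic ones (1.18%) were expressed. From 98 to below 100% identity the shares were 75.6% of intronic copies and 70.4% of intergenic copies. The intronic members had a median identity of 91.0% and a median of 95.8% unique words, while the intergenic members had 98.2% identity and 45.7% unique words.

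**Figure D5:**
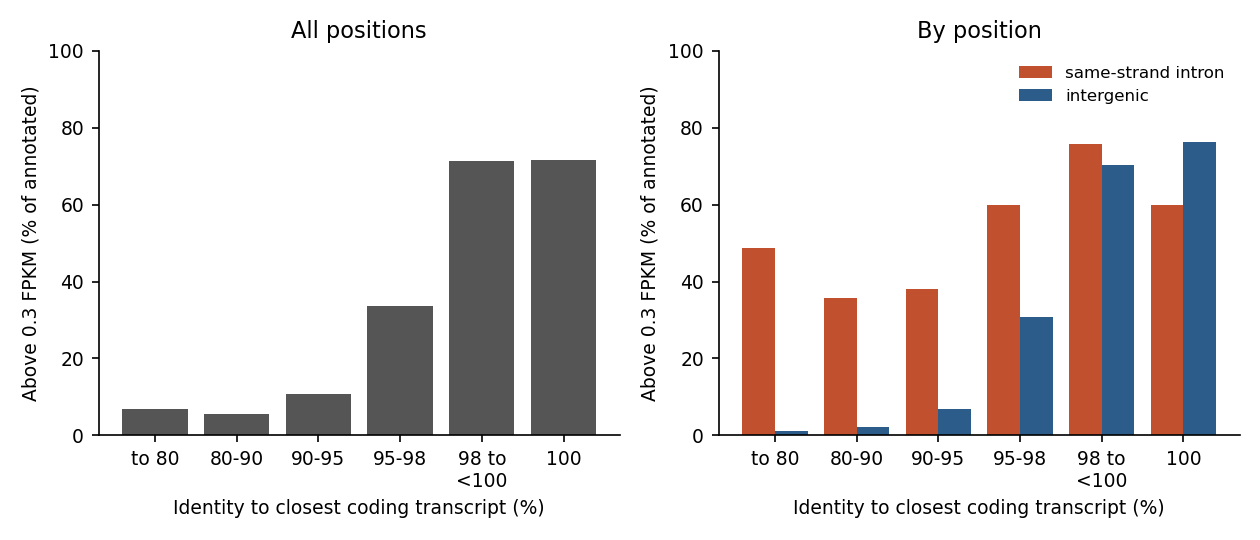
Share of annotated processed pseudogenes outside X and Y above 0.3 FPKM, in percent, by identity to the closest coding transcript, for all positions at left and for same-strand intronic (red) and intergenic (blue) copies at right. At up to 80% identity the share is 48.6% of intronic and 1.18% of intergenic copies, and from 98 to below 100% it is 75.6% of intronic and 70.4% of intergenic copies.

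The genes around intronic members were themselves expressed. Their median mean FPKM was 12.3 over the 368 members with a host in the table, against 0.206 for the hosts of 385 intronic copies that were not members. An example with no shared word comes from this group. AC147240.1, in an intron of Nav3, had 11.6 FPKM in maternal KO and 9.15 FPKM in wild type with 78.6% identity to Rpl23a, and was picked after its values were seen. How far unspliced RNA of the host entered these values was not tested. Spearman's correlation between the level of intronic members and that of the host was 0.241.

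By parent family, ribosomal protein copies were the largest group, with 371 members of 1870 annotated (19.8%) from 72 parents. Of these 49 (13.2%) were higher, 58 (15.6%) were lower and 264 within 2-fold, with a median log2 ratio of -0.03. These shares were near the 12.5% higher and 13.3% lower of all members and above the 9.44% higher and 8.94% lower of all transcripts. They summed to 2679 FPKM in maternal KO and 2719 FPKM in wild type. Above 20 FPKM they made up 32 of 66 members. Of those 66, 62 were at least 95% identical to the parent, 48 kept an open frame and 50 were within 1.2-fold between the libraries. The last share is 75.8%, against 89.3% of all transcripts above 20 FPKM.

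Copies of proteasome and ubiquitin genes were expressed in 47 of 142 cases (33.1%). Of the 47, 10 (21.3%) were higher and 6 (12.8%) lower, against 9.44% higher and 8.94% lower among all transcripts. Gm10241, identical to the ubiquitin-like modifier gene Sumo2, had 25.6 FPKM in maternal KO and 7.72 FPKM in wild type, while Sumo2 had 44.8 FPKM in maternal KO and 65.9 FPKM in wild type. Here the copy and its parent differed in opposite directions, and the copy had no unique word. Copies of glycolysis genes were expressed in 26 of 415 cases (6.27%), with 2 higher and 2 lower, or 7.69% each way. Gapdh alone gave 348 of the 415 annotated copies, 17 of the 26 expressed ones and the 2 higher and 2 lower.

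Of the copies of respiratory chain and ATP synthase genes, 3 of 44 (6.82%) were higher and 13 (29.5%) were lower, against 9.44% higher and 8.94% lower among all transcripts and 12.5% higher and 13.3% lower among all members. At the floor in maternal KO were 6 of the 13. Their median log2 ratio was -0.03. Gm16418, a copy of the complex III gene Uqcr11, had 55.1 FPKM in maternal KO and 18.9 FPKM in wild type, and it raised the group's sum to 394 FPKM in maternal KO, against 354 FPKM in wild type. Without it the sums were 339 FPKM in maternal KO and 336 FPKM in wild type. Gm10221 (Atp5l), Atp5k-ps2 and Gm15920 (Ndufa12), the other members at the top of the group, were between 42.4 and 48.2 FPKM in both libraries. Atp5k-ps2 had 98.8% unique words. The group was singled out after its values were seen.

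The smaller groups differed in their share past 2-fold in either direction, which was 27.6% of translation factor copies, 23.1% of chromatin copies, 15.9% of RNA-binding protein copies, 11.4% of chaperone and cyclophilin copies and 5% of cytoskeletal copies, against 25.8% of all members and 18.4% of all transcripts. Of 65 copies of chromatin genes 8 were higher and 7 lower, of 44 copies of RNA-binding protein genes 4 were higher and 3 lower, of 35 copies of chaperone and cyclophilin genes 2 were higher and 2 lower, and of 29 copies of translation factor genes 6 were higher and 2 lower. Of 20 copies of cytoskeletal genes 1 was higher and none lower. Eif4a-ps4, a copy of the translation initiation helicase gene Eif4a1 over 1218 bases, had 63.0 FPKM in maternal KO and 69.8 FPKM in wild type. Hist3h2bb-ps, a histone copy, had 70.4 FPKM in maternal KO and 67.5 FPKM in wild type. Snrpert, a copy of the spliceosomal gene Snrpe, had 51.0 FPKM in maternal KO and 54.4 FPKM in wild type. Gm11223, a copy of the microtubule regulator gene Stmn1, had 46.6 FPKM in maternal KO and 55.1 FPKM in wild type. All 4 were within 1.2-fold, but other high members of these groups were not. Those include Gm4617, Gm3788 and Gm10123, the highest chromatin, cytoskeletal and cyclophilin copies, whose values are given above. Gm7964, a copy of Hnrnpk, had 45.3 FPKM in maternal KO and 34.6 FPKM in wild type.

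The deleted microRNA pairs with its targets mainly through its seed, bases 2 to 8 of the mature strand, which are in capitals in the RefSeq sequence shown here because the copies were searched for it. The same mature strand is also made from a second locus that was not deleted.
mmu-miR-125b-5p: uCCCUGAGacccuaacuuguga

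The complement of the seed, CTCAGGG, stood on the transcript strand of 65 of 1262 members (5.15%) and of 6.27% of the other processed pseudogenes. Of the 65, 7 (10.8%) were higher and 4 (6.15%) lower in maternal KO, near the 9.44% higher and 8.94% lower of all transcripts. Of the 1197 members without the letters, 12.7% were higher and 13.8% lower. The median log2 ratio was 0.05 with the letters and -0.02 without them. Leaving out floor values, 6 members with the letters were higher and 1 lower, against 96 and 108 without them. With 1 library per genotype, no test of this difference was possible. The 65 summed to 218 FPKM in maternal KO and 143 FPKM in wild type. Gm15745 is among them, and without it the sums were 140 FPKM in maternal KO and 143 FPKM in wild type, so the difference rested on that 1 member. Its close relative Gm45660 also holds the letters and went the other way, at the floor in maternal KO and at 10.8 FPKM in wild type. A match of these letters is a description and not a site.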

How the data were processed

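Per the labels and the methods, the authors pooled RNA of 6 animals per genotype, depleted rRNA and prepared stranded libraries. Trimmomatic 0.36 was used for trimming, HISAT2 2.1.0 for alignment to the GRCm38.p5 build, and Cuffdiff for FPKM of each Ensembl transcript. For reads with several matching places, their treatment is not given in the sources used here, nor is the Cuffdiff version. The deposited FPKM table holds 1e-05 in place of 0. Its columns of the authors' own comparison (fold change, log2 value, p-value and q-value) were not used.

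The members and lists were chosen with earlier results of these data known. Members were taken by gene type and mean FPKM above 0.3. Ratios are FPKM in maternal KO over wild type, a value at the floor counts as past 2-fold, and log2 ratios used a pseudocount of 0.1 FPKM, which understates differences of low values. Closest coding transcripts came from blastn 2.17.0 (E-value up to 1e-10) against GENCODE M21, excluding genes that overlap the copy and preferring a named gene within 90% of the best score, so a parent is the closest match and not a proven source. Parent levels are sums over listed transcripts. Unique words are 50-base stretches found in no annotated transcript of another place, and unannotated sequence was not searched. Named genes were the 12 highest members, the 6 highest and 6 lowest ratios at 1 FPKM or more, the 6 highest at the floor in 1 library, copies named -ps at 5 FPKM or more, members beside the threshold, the parents of these and the 4 highest of each family. Others were picked after their values were seen. The counting was tested on simulated data. Python 3.11.15, pandas 2.3.3, scipy 1.17.1, biopython 1.88 and matplotlib 3.10.9 were used.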

Additional observations from a re-analysis of the deposited data

How the results depend on the processing

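No paired analysis was possible because there was only 1 library for each genotype. Of 59 values recomputed under other settings, 40 stayed within the limits set for them (1.5 times for counts, 0.1 for the median log2 ratio, 1.1 times for the ratio of sums, the 95% Wilson interval for shares, 0.1 for correlations) and 19 did not. With a mean above 0.1 FPKM, 271 were higher and 319 lower in maternal KO, with a mean above 1 FPKM 48 and 45, and with a mean above 5 FPKM 10 and 10. With the minimum on both libraries 53 were higher and 63 lower, and without floor values 102 and 109. A minimum on wild type alone gave 53 higher, 248 lower and a median log2 ratio of -0.14, whereas a minimum on the knockout alone gave 214 higher, 63 lower and a median of 0.11, as a minimum on 1 library removes members that are low there. Without transcripts under 300 bases 102 were higher and 121 lower. The ratio of sums, 1.02 in the report, was 0.983 with the minimum on wild type and 0.963 without transcripts under 300 bases. Spearman's correlation between levels of members and parents was 0.29 at 95% identity or more. Above 1 FPKM 27.2% of members lay in a same-strand intron and 42.4% kept an open frame, and 32.4% kept one among members with a unique word, a setting added after seeing the data. Scaling by the median coding ratio of 1.002 gave 158 higher and 171 lower. The A content beyond the end of each copy was not run.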

Other observations

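Processed pseudogenes of the sex chromosomes were outside the rule. Of 1019 annotated on X and Y, 97 had a mean above 0.3 FPKM. A related annotation class, transcribed processed pseudogenes, had 94 transcripts outside X and Y above 0.3 FPKM. Of these 6 (6.38%) were higher and 4 (4.26%) lower in maternal KO at 2-fold, 2 were at the floor in 1 library, and 48.9% were within 1.2-fold, and they summed to 770 FPKM in maternal KO and 829 FPKM in wild type. Of the 57 unprocessed pseudogenes above 0.3 FPKM, which arise by duplication of DNA, 7 (12.3%) were higher and 3 (5.26%) lower, against 9.44% higher and 8.94% lower among all transcripts. By chromosome, the share of annotated processed pseudogenes above the threshold was lowest on chromosome 12, at 12.2% of 542, and highest on chromosome 19, at 33.3% of 57.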
